A study of Mus musculus with 39 samples.

Results

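White adipose tissue (WAT) of mice lacking E47 was compared with WAT of wild-type mice after 3 weeks of dexamethasone (Dex), a synthetic glucocorticoid. The members were chosen by their sample titles, and they are the 2 E47KO and 2 wild-type (WT) fat libraries of a series of 39 libraries, the other 35 of which come from liver and muscle. All 4 mice were male, on a C57BL/6 background and, per the methods of the study, 10 to 16 weeks old. They were kept on chow, received Dex at 10 µg/ml in the drinking water for 3 weeks and were killed after a glucose tolerance test that followed an overnight fast. The tissue was epididymal fat. The genotypes were E47-/- and E47+/+, so E47 was missing from the whole body and not from adipocytes alone. No WAT library without Dex was analysed here, so a difference between the genotypes cannot be told apart from a difference in the response to Dex. The libraries are named WT1, WT2, KO2 and KO3 after their replicate numbers, and values are given in that order.

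E47 belongs to the basic helix-loop-helix transcription factors and is made, beside its splice form E12, from the *Tcf3* (*E2A*) gene. E proteins such as E47 bind the E-box, CANNTG, as dimers, are held off DNA by the Id proteins and are needed for B lymphocyte development. Dex acts through the glucocorticoid receptor (GR, *Nr3c1*), which binds glucocorticoid response elements (GREs) and switches on metabolic, clock and anti-inflammatory genes. White fat stores triglyceride and releases fatty acids and adipokines, and it holds, besides adipocytes, fibroblasts and progenitors, vessels, mesothelium and many macrophages. MHC class II molecules present peptides to CD4+ T cells. They are made by B cells, dendritic cells and macrophages, under the control of the co-activator CIITA, and can be induced in other cells by interferon-gamma.

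The leading differences between the genotypes included MHC class II genes, of which *H2-Aa*, *H2-Ab1*, *H2-Eb1* and *Cd74* were 5.62 to 6.40-fold higher in E47KO, and *Tdg*, *Rnf144b* and *Mlxipl*, which were 4.86, 1.90 and 1.82-fold lower. The pseudogene *Gm15920*, described with *Tdg*, was 42.5-fold higher. None passed correction over all genes in the main test. Sequences of 2 class II promoters and 2 promoters of GR target genes are shown because the results turn on these groups. They are RefSeq sequences on build GRCm38.p6, each 300 bases long and reaching from upstream of the start site to just inside the transcript. The class II promoters are *H2-Aa* at chr17:34287774-34288073, minus strand, and *H2-Eb1* at chr17:34305617-34305916, plus strand. In both, capitals mark E-boxes (CANNTG) and CTGATTGG, the core of the Y-box to which the factor NF-Y binds.
H2-Aa: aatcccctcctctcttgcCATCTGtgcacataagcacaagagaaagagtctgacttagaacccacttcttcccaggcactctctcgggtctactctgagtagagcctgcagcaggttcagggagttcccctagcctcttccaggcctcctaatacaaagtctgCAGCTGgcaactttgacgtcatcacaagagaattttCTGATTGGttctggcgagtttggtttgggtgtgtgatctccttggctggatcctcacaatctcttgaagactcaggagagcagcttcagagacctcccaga
H2-Eb1: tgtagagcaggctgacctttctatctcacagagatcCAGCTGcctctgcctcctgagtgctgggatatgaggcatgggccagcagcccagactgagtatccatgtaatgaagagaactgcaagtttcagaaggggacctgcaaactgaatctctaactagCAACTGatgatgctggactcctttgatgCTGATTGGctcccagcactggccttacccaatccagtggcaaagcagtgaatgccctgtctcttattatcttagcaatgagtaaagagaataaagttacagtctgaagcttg
In the *H2-Aa* promoter the E-boxes began 232 and 87 bases before the start site and the Y-box core 51 bases before it. In the *H2-Eb1* promoter the E-boxes began 214 and 90 bases and the Y-box core 62 bases before the start. Searched on both strands in every start window listed for a gene, CANNTG was found for 75.0% of all 27025 genes and for 5 of the 7 class II genes with a promoter. CAGCTG, which is itself a CANNTG, was found for 18.3% of all genes and 3 of the 7, and CTGATTGG for 4.70% of all and 3 of the 7.

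The promoters of GR target genes are those of *Sgk1* at chr10:21993640-21993939, plus strand, which is 1 of 6 start windows listed for this gene, and *Klf15* at chr6:90462326-90462625, plus strand. Capitals mark in *Sgk1* the full GRE, a palindrome made of AGAACA and its reverse complement with 3 bases between them, and CACGTG, the E-box form bound by the clock factors CLOCK and BMAL1, in *Klf15*.
Sgk1: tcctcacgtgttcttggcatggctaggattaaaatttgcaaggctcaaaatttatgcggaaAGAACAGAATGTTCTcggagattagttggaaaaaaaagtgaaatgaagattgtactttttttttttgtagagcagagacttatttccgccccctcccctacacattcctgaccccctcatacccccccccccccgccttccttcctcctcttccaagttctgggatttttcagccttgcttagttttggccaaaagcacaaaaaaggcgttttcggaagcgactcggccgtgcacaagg
Klf15: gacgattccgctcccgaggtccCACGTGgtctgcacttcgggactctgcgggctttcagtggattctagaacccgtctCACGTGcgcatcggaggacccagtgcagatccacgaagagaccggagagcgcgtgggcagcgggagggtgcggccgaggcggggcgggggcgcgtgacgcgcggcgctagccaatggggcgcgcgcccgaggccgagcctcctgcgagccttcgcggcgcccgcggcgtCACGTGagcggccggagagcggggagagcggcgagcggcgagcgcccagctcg
The GRE began 189 bases before the *Sgk1* start. This *Sgk1* window also holds a CACGTG, left in lower case, which began 246 bases before the start. The 3 CACGTG of *Klf15* began 228, 172 and 3 bases before its start. The GRE was found for 0.0111% of all 27025 genes and for 1 of the 21 GR target genes with a promoter. CACGTG was found for 8.09% of all genes and for 6 of the 21. A match describes these letters only and says nothing about binding in WAT.

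The libraries held 34.5, 35.6, 38.1 and 43.0 M (mega) counts in genes. Another 30.9 to 33.7% of entries named no gene. Levels are given as CPM, counts per mega-count of the scaled library size, and fold changes as log2 of E47KO over WT. The tissue label held in all 4 libraries, in which all 16 adipocyte markers were expressed, led by the fatty acid carrier *Fabp4* at 26415 to 30651 CPM. Of 21 epididymis and testis markers 1 was expressed, and the summed level of that list was 0.754 to 2.81 CPM. The libraries were not equally alike. The median absolute log2 difference over genes was 0.161 between WT1 and WT2 and 0.229 between KO2 and KO3, and KO3 was nearest to WT2 (0.158). KO2 therefore stands apart, and list medians are given with and without it where it moves them. Transcripts of ciliated or secretory epithelium were highest in KO3 and lowest in KO2. The summed level of 8 such genes, chosen after their values were seen, was 62.9 CPM in KO3. It was 6.37 and 9.67 CPM in the WT libraries and 0.103 CPM in KO2. The replicates are separate mice by their labels. In such bulk tissue, more cells of a type and more RNA of a gene per cell cannot be told apart.

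*Tcf3*, at chr10:80409514-80433647, was at 22.7, 20.7, 21.1 and 19.9 CPM. The libraries overlapped in level (log2 fold change -0.09, SE 0.11, with p above 0.05), and a count over the whole gene, which also takes in E12, does not check the loss of the E47 exon. *Tdg*, at chr10:82629828-82650799 and 2.22 Mb from *Tcf3*, encodes thymine DNA glycosylase, a base excision repair enzyme that removes oxidised methylcytosine. It was at 9.55 and 9.52 CPM in WT and 1.77 and 2.15 CPM in E47KO, with no overlap. Its log2 fold change was -2.28 (SE 0.20, adjusted p = 0.346 in edgeR), that is 4.86-fold lower, and its adjusted p over 11 alternative settings ran from 1.95e-11 to 1.00.

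*Gm9855*, a processed pseudogene of *Tdg* at chr10:42054113-42055306 that is 99.2% identical to the *Tdg* transcript over 1194 bases, had 0 counts in both WT libraries and 61 and 64 counts in KO2 and KO3. Against 3 counts per WT library this is at least 18.1-fold higher. Reads of such copies can be split between the 2 genes by alignment, so the values of both are uncertain. *Gm15920*, on chromosome 5, was at 0.670 and 0.466 CPM in WT and 17.2 and 31.5 CPM in E47KO (log2 fold change 5.41, SE 0.42). It is a pseudogene 99.5% identical to *Ndufa12*, a respiratory complex I gene on the chromosome of *Tcf3*, which was at 84.6, 97.9, 82.8 and 68.2 CPM (log2 fold change -0.27, SE 0.14, with p above 0.05). All 3 of *Tdg*, *Gm9855* and *Gm15920* also differed the same way in liver and muscle, as given with the other tissues. Among the 255 genes tested that start within 10 Mb of *Tcf3*, a list added after the values were seen, 126 were higher and 129 lower. Of the 255, 13 had an unadjusted p under 0.05, a share of 5.1% that lay near the 4.29% of all genes tested. The genes on either side of *Tdg* are given for their position. *1190007I07Rik* was lower, at 5.39, 5.56, 3.80 and 3.08 CPM (log2 fold change -0.67, SE 0.22), and *Glt8d2*, whose end overlaps that of *Tdg* by position, was higher, at 1.42, 1.05, 2.36 and 3.41 CPM (log2 fold change 1.22, SE 0.34). The libraries were unstranded, so reads from overlapping genes on opposite strands cannot be told apart.

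Across the 16289 genes tested, none passed an adjusted p of 0.05 with edgeR's quasi-likelihood test and Benjamini-Hochberg adjustment (0% called), and the smallest adjusted p was 0.240. With 2 libraries a group, 699 genes (4.29%) had an unadjusted p under 0.05, 336 higher (2.06%) and 363 lower (2.23%). DESeq2, run as an alternative, called 38 genes (0.215% of 17680), 22 higher and 16 lower. The fit with no filter on low counts called 6 (0.0228%) and a joint fit with liver and muscle 3 (0.0166%). The 38 genes called by DESeq2 included all 12 leading higher and 8 of the 12 leading lower genes, defined as the genes with the smallest p among those whose libraries do not overlap and whose mean is at least 1 CPM. At an unadjusted p under 0.05 and 1.3-fold, 276 genes (1.69%) were higher and 243 (1.49%) lower. Both E47KO libraries lay above both WT libraries for 15.8% of all genes and below them for 17.2%. Of all genes 50.5% had a log2 fold change above 0. The named genes are thus leading differences and not genes called changed by the main test. An exact permutation test of 2 against 2 libraries cannot go below a two-sided p of 0.333, so none is given for single genes. Where a list's members are counted at a p under 0.05, the p is unadjusted and from edgeR.

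**Figure D1:**
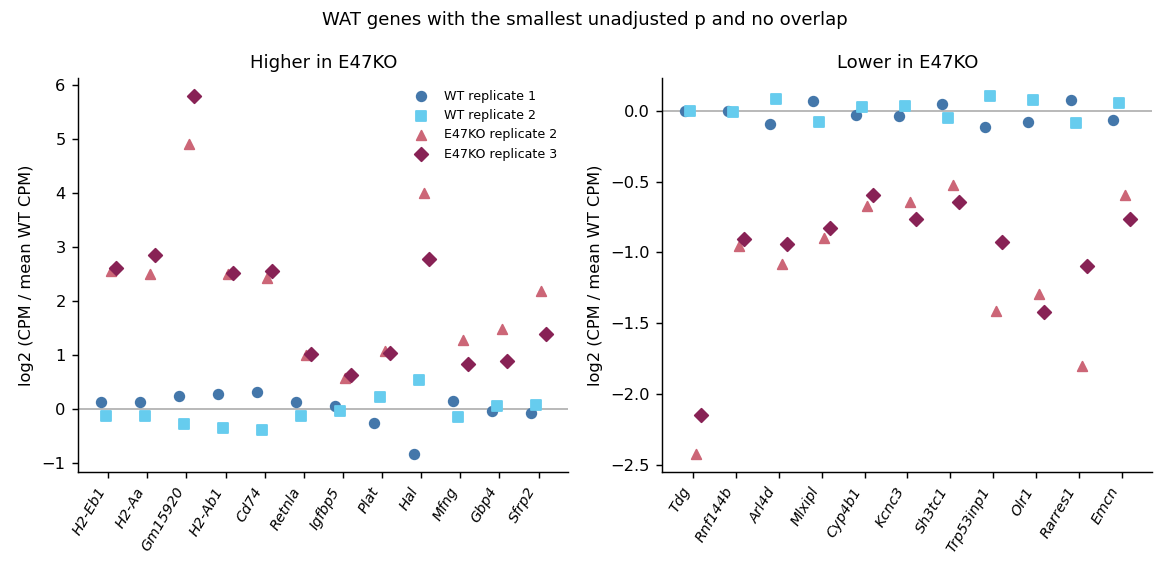
The 12 leading higher and 11 of the 12 leading lower genes in WAT, as log2 of the CPM of each of the 2 WT and 2 E47KO libraries over the mean WT CPM. The groups do not overlap for any of them because the rule chose such genes, and on the higher side *Gm15920* and *Hal* lie farthest from WT.

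The class II list had 10 genes, 7 of which passed the filter on low counts. *Ciita* passed it only through E47KO and is left out of the counts. The other 6 were higher in E47KO with a p under 0.05, against 2.06% of all genes tested. In all 6 both E47KO libraries lay above both WT libraries, against 15.8% of all genes. Their median log2 fold change was 2.50, against 0.00 over all genes tested, and it was 2.20 to 2.75 when 1 library was left out in turn. The summed level of the list was 20.9 and 14.7 CPM in WT and 87.3 and 95.8 CPM in E47KO.

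*H2-Aa*, the alpha chain of the class II molecule I-A (chr17:34282744-34287823), was at 2.68 and 2.24 CPM in WT and 13.9 and 17.7 CPM in E47KO. Both E47KO values were far above both WT values (log2 fold change 2.68, SE 0.21). *H2-Ab1*, its beta chain (chr17:34257689-34269419), was at 3.07 and 1.98 CPM in WT and 14.2 and 14.4 CPM in E47KO. The log2 fold change was 2.50 (SE 0.25). *H2-Eb1*, the beta chain of the class II molecule I-E (chr17:34305867-34316674), was at 2.18 and 1.83 CPM in WT and 11.8 and 12.2 CPM in E47KO. The log2 fold change was 2.58 (SE 0.19), with the smallest p of all genes. *Cd74*, on chromosome 18, encodes the invariant chain that fills the class II groove until a peptide is loaded. It was at 8.96 and 5.47 CPM in WT and 38.8 and 42.4 CPM in E47KO (log2 fold change 2.49, SE 0.25). The adjusted p of these 4 genes was 0.240 to 0.347 with edgeR (Benjamini-Hochberg). DESeq2 called all 4, and with 11 alternative settings their adjusted p passed 0.05 in 4 settings each, with a range for *H2-Aa* of 9.28e-18 to 1.00.

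The genes for peptide loading differed by less. *H2-DMa*, a chain of the HLA-DM-type exchange factor, was at 1.79 and 1.75 CPM in WT and 4.29 and 4.17 CPM in E47KO (log2 fold change 1.26, SE 0.23). *H2-DMb1*, its partner chain, was at 1.98 and 1.16 CPM in WT and 3.41 and 3.19 CPM in E47KO (log2 fold change 1.07, SE 0.34). For neither did the groups overlap. *Ciita*, the class II co-activator, had 2 counts in each WT library and 12 and 38 counts in KO2 and KO3. Because *Ciita* passed the filter only through E47KO, these counts are given as values, without a ratio. The 3 genes below the filter were *H2-DMb2*, with 4, 2, 10 and 22 counts, *H2-Ob*, with 4, 4, 12 and 8, and *H2-Oa*, with 0, 2, 3 and 2.

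**Figure D2:**
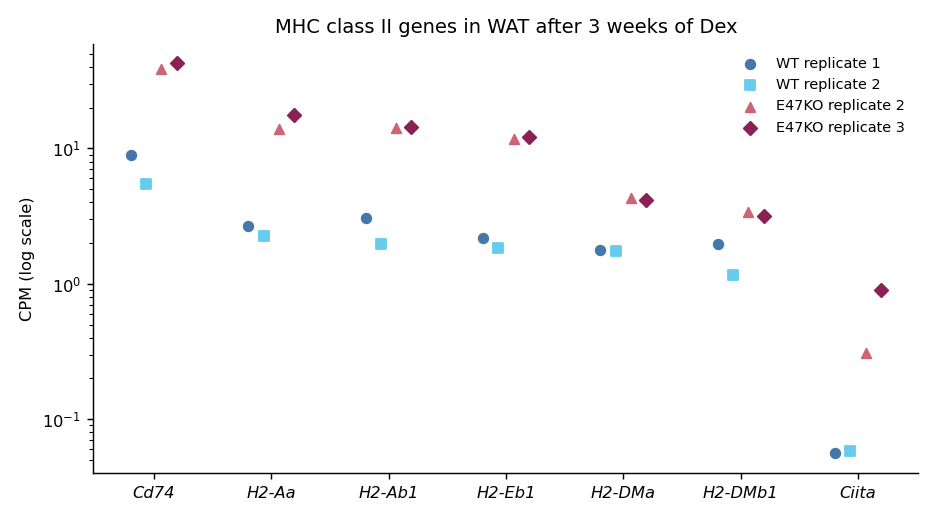
MHC class II genes in WAT, in CPM on a log axis, with a point for each library of the 2 genotypes. Both E47KO libraries lie above both WT libraries for the 6 genes counted, from *Cd74* at 38.8 and 42.4 CPM in E47KO downward, and *Ciita*, which passed the filter through E47KO alone, is drawn last.

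Cells and signals that usually go with class II were described with lists, some of them chosen after the values were seen. Of 8 MHC class I and antigen processing genes, which load peptides for CD8+ T cells, all 8 were higher, with a median log2 fold change of 0.27 and none with a p under 0.05, while without KO2 the median was 0.07 with 6 higher and 2 lower. This list was chosen after the values were seen. *H2-K1*, a class I heavy chain, was at 505 and 484 CPM in WT and 656 and 562 CPM in E47KO (log2 fold change 0.30, SE 0.14, with p above 0.05). All 14 genes of interferon-gamma-type GTPases and factors were higher, 6 of them with a p under 0.05 against 2.06% of all genes tested, and their median was 0.47 (0.26 without KO2, with 12 higher). This list was also chosen after the values were seen. *Gbp4*, a guanylate-binding GTPase of cell-autonomous defence, was at 9.61 and 10.2 CPM in WT and 27.5 and 18.3 CPM in E47KO (log2 fold change 1.21, SE 0.22). *Cxcl9*, a chemokine induced by interferon-gamma, was at 12.3, 10.2, 14.7 and 16.8 CPM (log2 fold change 0.49, SE 0.15). *Ifng* itself had 0 counts in all 4 libraries. Of the 20 interferon response genes, which respond chiefly to type I interferon, 17 were higher, none had a p under 0.05, and the median of 0.16 was -0.03 without KO2.

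The dendritic cell list, also chosen after the values were seen, lay close to the median of all genes. Of its 5 genes tested 3 were higher, none had a p under 0.05, and the median was 0.02 (-0.05 without KO2). *Zbtb46*, a transcription factor of classical dendritic cells, was at 28.1, 27.2, 23.4 and 26.9 CPM, and *Clec9a*, a receptor of the cross-presenting subset, at 1.84, 1.80, 1.72 and 1.72 CPM. The summed level of the list, most of it *Zbtb46*, was 30.8 to 36.1 CPM over the 4 libraries, and the genotypes overlapped. Which cells of the fat the *Zbtb46* reads came from was not tested, so this sum does not measure dendritic cells. The median level over all 8 genes of the list was only 0.346 to 0.422 CPM.

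Of the 22 macrophage markers 18 were higher, with a median of 0.33, but the summed level was 1996 and 1589 CPM in WT and 2858 and 1639 CPM in E47KO, so KO3 lay within the WT range. Without KO2 the median was -0.10, with 7 higher and 15 lower. *Retnla*, a secreted marker of alternatively activated macrophages, was the only marker with a p under 0.05. It was at 17.8 and 14.8 CPM in WT and 32.6 and 32.8 CPM in E47KO (log2 fold change 1.00, SE 0.13). The class II median without KO2, 2.53, was as large as with it.

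Of 21 B cell markers 16 were below the filter on low counts and 5 were tested. *Igkc* and *Ighd* passed the filter only through WT, where they were higher, and are given as values. *Igkc*, the kappa light chain constant region, had 31 and 71 counts in WT and 1 and 7 in E47KO. *Ighd*, the delta heavy chain of naive B cells, had 18 and 16 counts in WT and 6 and 7 in E47KO. *Ighm*, the mu heavy chain, overlapped between the genotypes, at 93.2, 52.0, 87.7 and 63.4 CPM. *Ms4a1*, which encodes the B cell surface protein CD20, had 2 counts in each WT library and 0 in E47KO, too few for a fold. The T cell and NK cell lists had 7 genes tested each and none with a p under 0.05, with medians of 0.22 and 0.47. The T cell values include *Zap70* (log2 fold change 0.52), which passed the filter only through E47KO. The T cell median was 0.12 without KO2 and -0.02 without WT2, and the NK cell median was 0.20 without KO2 and 1.00 without WT1.

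A chemokine receptor that brings monocytes into tissue was higher. *Ccr2*, the receptor of the monocyte attractant CCL2, was at 3.57 and 3.55 CPM in WT and 17.1 and 8.92 CPM in E47KO (log2 fold change 1.87, SE 0.34). Both E47KO libraries lay above both WT libraries, with the higher value in KO2. Among the 7 chemokine receptors in its list, chosen after the values were seen, 5 were tested and 4 were higher. Their median of 1.48 was 0.36 without KO2, with 3 higher and 2 lower.

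Of the 20 inflammatory cytokine genes tested 18 were higher, 3 of them with a p under 0.05 against 2.06% of all genes tested. The median of 0.50 fell to -0.03 without KO2. *Il1b*, the cytokine of the inflammasome, was at 1.54 and 2.88 CPM in WT and 11.7 and 4.43 CPM in E47KO (log2 fold change 1.87, SE 0.57). *Ccl11*, the eosinophil attractant eotaxin, was at 13.5 and 13.5 CPM in WT and 19.2 and 21.2 CPM in E47KO (log2 fold change 0.58, SE 0.12), with KO3 the higher of the 2. *Ccl8*, a monocyte attractant, was at 0.391, 0.262, 1.82 and 0.906 CPM (log2 fold change 2.05, SE 0.52). *Cxcl13*, a B cell attractant, was high in KO2 alone, at 12.0, 14.6, 46.0 and 12.6 CPM (log2 fold change 1.14, SE 0.60, with p above 0.05).

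The neutrophil list was divided. *S100a8*, a subunit of calprotectin, was at 10.1 and 17.7 CPM in WT and 27.5 and 32.8 CPM in E47KO (log2 fold change 1.12, SE 0.28). *S100a9*, the other subunit, was at 11.6, 23.3, 33.5 and 44.7 CPM (log2 fold change 1.16, SE 0.35). *Retnlg* was also higher (log2 fold change 0.58, SE 0.23), while the granule gene *Ngp* had 31 counts in each WT library and 16 in each E47KO library (log2 fold change -1.15, SE 0.35). *Socs3*, which blocks cytokine and insulin receptors and is induced by STAT3, was at 6.23 and 9.08 CPM in WT and 19.5 and 12.2 CPM in E47KO (log2 fold change 1.05, SE 0.30).

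Fibroblast and matrix genes lay mostly on the higher side. Of 30 extracellular matrix genes 23 were higher, 7 of them with a p under 0.05 against 2.06% of all genes tested. Of the 7 lower ones 2 had a p under 0.05, against 2.23% of all genes tested. The median was 0.41, or 0.14 without KO2 and 0.73 without KO3. *Col1a2*, a chain of type I collagen, was at 145 and 176 CPM in WT and 299.8 and 242 CPM in E47KO (log2 fold change 0.75, SE 0.17). *Col1a1*, its partner chain, was at 93.9, 115, 190.2 and 149 CPM (log2 fold change 0.70, SE 0.17). *Col14a1*, a fibril-associated collagen, was at 3.77, 6.70, 29.6 and 11.0 CPM, and the E47KO values, both above WT, differed from each other by more than those of WT did. *Fbn1*, the microfibril protein fibrillin, and *Lum*, a collagen-binding proteoglycan, had the same order, with 283 and 140.2 CPM for *Fbn1* and 46.4 and 19.6 CPM for *Lum* in KO2 and KO3. The matrix proteases *Mmp2* (log2 fold change 0.82, SE 0.27) and *Mmp3* (log2 fold change 1.31, SE 0.48) completed the 7. The 2 lower genes were chains of type V collagen. *Col5a3*, abundant in fat, was at 836 and 664 CPM in WT and 547 and 441 CPM in E47KO (log2 fold change -0.60, SE 0.19), and *Col5a1*, a partner chain, had a log2 fold change of -0.34 (SE 0.12).

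Of the 14 adipocyte progenitor and fibroblast markers tested 11 were higher, 4 of them with a p under 0.05 against 2.06% of all genes tested. The median was 0.38 (0.20 without KO2). *Pi16*, a marker of the earliest progenitors in fat, was at 12.9 and 17.6 CPM in WT and 36.1 and 25.2 CPM in E47KO (log2 fold change 1.01, SE 0.24). *Cd248*, also called endosialin, was at 22.1, 25.4, 73.4 and 30.6 CPM (log2 fold change 1.13, SE 0.41), and *Cd34*, a progenitor and endothelial surface protein, at 72.9, 76.2, 143 and 87.1 CPM (log2 fold change 0.63, SE 0.24). In both, KO2 was far above and KO3 just above WT. *F3*, the clotting receptor tissue factor, was at 56.5, 58.4, 67.8 and 74.4 CPM (log2 fold change 0.31, SE 0.10). All 10 mesothelial markers tested, of the cell layer that covers the fat pad, were also higher, but with a summed level of 199 and 383 CPM in WT and 601 and 319 CPM in E47KO the genotypes overlapped. The mesothelial median of 0.78 was 0.14 without KO2, and only *Krt8*, a keratin, had a p under 0.05. The part of mesothelium, fibroblasts or macrophages in the higher matrix, cytokine and progenitor genes of KO2 was not tested.

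Among the other leading higher genes, *Hal*, the histidine ammonia lyase that makes urocanate from histidine (chr10:93488768-93519304), was at 1.31 and 3.41 CPM in WT and 37.9 and 16.1 CPM in E47KO (log2 fold change 3.52, SE 0.61). *Plat*, the tissue plasminogen activator, was at 10.9, 15.2, 27.3 and 26.6 CPM (log2 fold change 1.04, SE 0.18). *Mfng*, a glycosyltransferase that modifies Notch receptors, was at 47.2, 38.6, 104 and 75.9 CPM (log2 fold change 1.07, SE 0.19). *Sfrp2*, a secreted Wnt antagonist, was at 1.79, 1.98, 8.58 and 4.94 CPM, and *Igfbp5*, which binds insulin-like growth factors, at 66.6, 62.5, 95.4 and 99.1 CPM. In all 5 genes both E47KO values were above both WT values, and *Hal* and *Mfng* had the E47KO libraries farthest apart in CPM. *Lars2*, a mitochondrial leucyl-tRNA synthetase gene singled out after its values were seen, was at 662, 811, 2923 and 1523 CPM (log2 fold change 1.59, SE 0.35). In the joint fit with liver and muscle its log2 fold change of 1.61 had an SE of 1.44. Whether all reads counted for *Lars2* came from its own transcript was not tested.

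**Figure D3:**
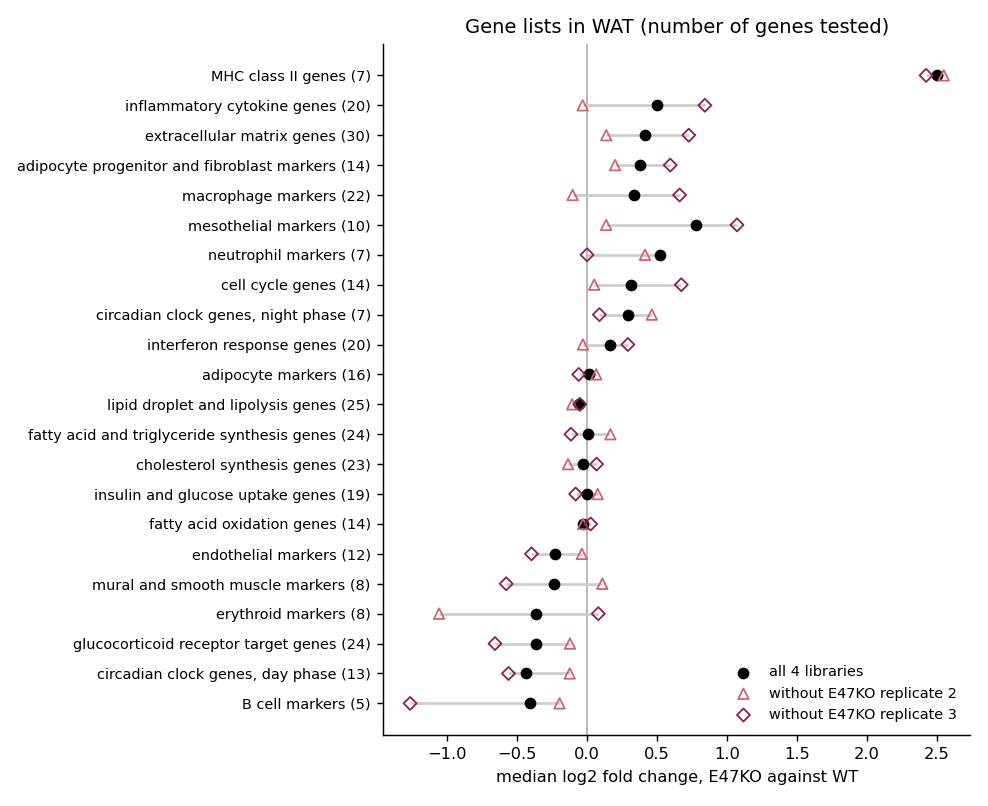
Median log2 fold change of E47KO against WT for gene lists in WAT, with all 4 libraries and without KO2 or KO3. The class II list, drawn with its 7 tested genes, stays near 2.50 in each fit, while the cytokine, macrophage and mesothelial medians come close to 0 without KO2.

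Genes of the glucocorticoid receptor pathway lay on both sides of 0. Of 14 tested, 5 were higher and 9 lower, with a median log2 fold change of -0.08. The receptor gene *Nr3c1* was at 65.2, 65.4, 78.6 and 68.4 CPM (log2 fold change 0.17, SE 0.11, with p above 0.05). *Hsd11b1*, which regenerates active glucocorticoid inside cells, overlapped between the genotypes, at 629, 862, 536 and 799.9 CPM. *Fkbp4*, a co-chaperone that carries the receptor to the nucleus, was higher, at 55.6, 50.9, 68.5 and 61.0 CPM (log2 fold change 0.28, SE 0.11).

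GR target genes lay on the lower side. Of 24 tested 22 were lower, 6 of them with a p under 0.05 against 2.23% of all genes tested, and in 12 both E47KO libraries lay below both WT libraries, against 17.2% of all genes. The median was -0.37. It depended on KO2, being -0.12 with 17 lower genes without KO2 and -0.66 without KO3. *Mt1*, a metal-binding metallothionein, was at 1711 and 1713 CPM in WT and 924 and 1187 CPM in E47KO (log2 fold change -0.70, SE 0.18). *Ddit4*, an inhibitor of the growth kinase mTORC1 also called REDD1, was at 238 and 216 CPM in WT and 86.3 and 145 CPM in E47KO (log2 fold change -0.97, SE 0.26), and it was -0.65 without KO2. *Dusp1*, a phosphatase that switches off MAP kinases, was at 170.3, 182, 123 and 140.5 CPM (log2 fold change -0.42, SE 0.12). *Cebpd*, an early factor of fat cell differentiation, was at 73.8, 84.2, 50.4 and 63.5 CPM (log2 fold change -0.47, SE 0.15). *Mt2* (log2 fold change -0.57, SE 0.20) and *Klf15* (log2 fold change -0.44, SE 0.17) completed the 6. *Klf15*, a Krüppel-like factor whose promoter sequence is given, was at 46.7, 43.3, 27.8 and 38.4 CPM.

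The best-known targets overlapped or nearly so through KO3. *Fkbp5*, a co-chaperone in the feedback on the receptor, was at 685, 787, 339 and 677 CPM, so that only KO2 was clearly lower (log2 fold change -0.53, SE 0.34, with p above 0.05). *Per1*, a clock gene that the receptor induces, was at 166, 191, 91.3 and 186 CPM, and *Tsc22d3*, the anti-inflammatory protein GILZ, at 612, 575, 397 and 568 CPM. *Sgk1*, a kinase that regulates sodium transport and whose promoter holds the GRE, was at 138, 124, 56.4 and 105 CPM (log2 fold change -0.70, SE 0.30, with p above 0.05). *Pck1*, which makes glycerol backbones for triglyceride in fat, was on the other side, at 2304, 2537, 2999 and 3244 CPM (log2 fold change 0.37, SE 0.17, with p above 0.05).

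Clock genes of the day phase, several of which are also GR targets, showed the same split between KO2 and KO3. Of 13 tested 12 were lower, 2 of them with a p under 0.05 against 2.23% of all genes tested. The median of -0.44 was -0.12 without KO2. *Per3*, a repressor of the clock, was at 67.5 and 65.2 CPM in WT and 38.1 and 48.3 CPM in E47KO (log2 fold change -0.62, SE 0.14). *Tef*, an output factor of the clock, was at 149.5, 163, 106 and 119 CPM (log2 fold change -0.47, SE 0.12). In both, each E47KO value was below each WT value. Of the 7 night-phase genes 6 were higher, none with a p under 0.05, and *Arntl*, which encodes BMAL1, was at 19.5, 21.2, 23.1 and 25.0 CPM (log2 fold change 0.24, SE 0.11, with p above 0.05). The hour at which each mouse was killed is not given in the sources used here.

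**Figure D4:**
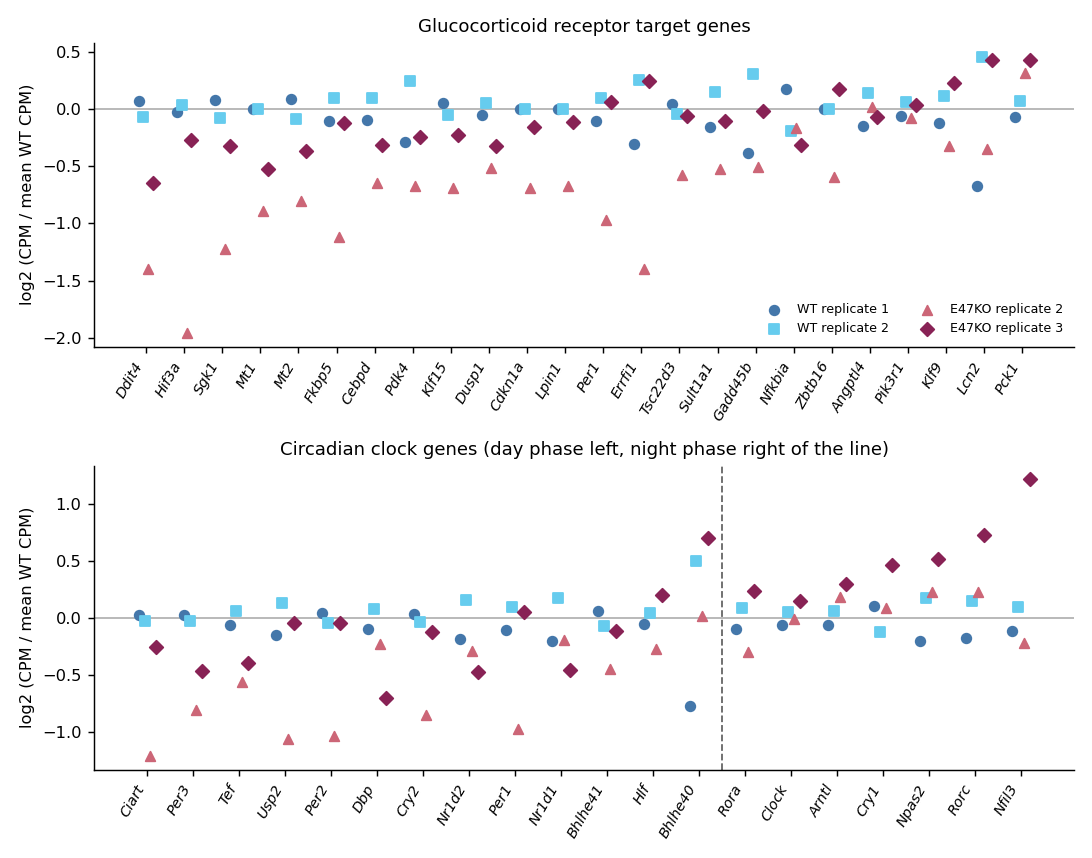
GR target genes and clock genes in WAT, as log2 difference of each library from the WT mean. KO2 lies farther below WT than KO3 for most GR targets, as for *Fkbp5* at 339 CPM in KO2 and 677 CPM in KO3.

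Adipocyte markers lay on both sides of 0. Of 16 adipocyte markers 10 were higher and 6 lower, none had a p under 0.05, and the median was 0.01. *Fabp4* was at 30194, 30651, 27757 and 26415 CPM. *Adipoq*, the insulin-sensitising hormone adiponectin, was at 2372, 2564, 3494 and 2829 CPM (log2 fold change 0.36, SE 0.19, with p above 0.05). *Lep*, the satiety hormone leptin, was at 1675 and 1411 CPM in WT and 902 and 1256 CPM in E47KO (log2 fold change -0.52, SE 0.22, with p above 0.05). For both hormones the groups did not overlap, but the spread between replicates was large beside the difference.

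Lists for fat storage and use had medians close to 0. Those for lipid droplets and lipolysis (25 genes tested), fatty acid and triglyceride synthesis (24), cholesterol synthesis (23), fatty acid oxidation (14) and insulin and glucose uptake (19) had medians of -0.05, 0.01, -0.03, -0.03 and 0.00, and of -0.11, 0.17, -0.14, -0.03 and 0.08 without KO2. Genes with a p under 0.05 among them included *Mlxipl* and *Socs3*. *Mlxipl* encodes ChREBP, the glucose-sensing factor that drives lipogenic genes (chr5:135089890-135138382). It was at 278 and 251 CPM in WT and 142 and 149 CPM in E47KO (log2 fold change -0.86, SE 0.12). *Scd1*, a fatty acid desaturase, was at 25894, 45946, 30668 and 59207 CPM, and *Fasn*, the fatty acid synthase, at 1141, 1987, 1380 and 2335 CPM, so that both overlapped between the genotypes, with WT2 and KO3 higher than WT1 and KO2. The lipases *Pnpla2* and *Lipe* were at 3563 to 3816 CPM and 1213 to 1362 CPM over the 4 libraries. *Slc2a4*, the insulin-dependent glucose transporter, was at 132, 191, 128 and 185 CPM. Of 12 thermogenic genes 8 were tested, and *Ucp1*, the uncoupling protein of brown fat, had 2 to 5 counts in each library. Among 19 adipokines and secreted factors *Vegfa*, the angiogenic factor, was the only one with a p under 0.05, at 575 and 741 CPM in WT and 462 and 457 CPM in E47KO (log2 fold change -0.52, SE 0.17).

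Of 12 endothelial markers 11 were lower, 2 with a p under 0.05 against 2.23% of all genes tested. Without KO2 6 were higher and 6 lower, and the median of -0.23 was -0.04. *Emcn*, a sialoprotein of capillaries and veins, was at 22.3 and 24.3 CPM in WT and 15.5 and 13.8 CPM in E47KO (log2 fold change -0.67, SE 0.12). *Egfl7*, a secreted endothelial protein, was at 171, 185, 128 and 141 CPM (log2 fold change -0.40, SE 0.11), while *Pecam1*, the general endothelial adhesion molecule, was at 183, 187, 140.3 and 166 CPM (log2 fold change -0.27, SE 0.13, with p above 0.05). Of 8 mural and smooth muscle genes 2 were lower with a p under 0.05, against 2.23% of all genes tested. They were *Notch3*, a receptor of pericytes (log2 fold change -0.61, SE 0.20), and *Tagln*, a contractile protein (log2 fold change -0.23, SE 0.09). The median of the mural list, -0.24, was 0.11 without KO2. Erythroid genes were 1871, 1605, 1837 and 881 CPM in sum, so KO3 held the least and KO2 was within the WT range.

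Other genes led the lower side. *Rnf144b*, an E3 ubiquitin ligase induced by p53, at chr13:47122656-47247991, was at 84.2 and 83.7 CPM in WT and 43.4 and 44.9 CPM in E47KO (log2 fold change -0.93, SE 0.09). *Trp53inp1*, another gene induced by p53, was at 205, 238, 83.0 and 117 CPM (log2 fold change -1.15, SE 0.20). *Arl4d*, a small GTPase, was at 23.9, 27.0, 12.0 and 13.3 CPM (log2 fold change -1.01, SE 0.13). In these 3 genes the E47KO values were close to each other beside their distance from WT, and *Trp53inp1* had the widest replicates. *Rarres1*, a retinoid-responsive gene, was at 20.9, 18.7, 5.67 and 9.25 CPM. *Cyp4b1*, a cytochrome P450, was at 156, 162, 99.9 and 105 CPM. *Olr1*, a receptor for oxidised low-density lipoprotein, was at 4.52, 5.04, 1.95 and 1.79 CPM. Of the E proteins and Id inhibitors, *Id1* was lower, at 22.3, 19.0, 16.7 and 12.9 CPM (log2 fold change -0.48, SE 0.17), and *Id3* was at 66.2, 79.3, 83.6 and 92.8 CPM (log2 fold change 0.28, SE 0.13, with p above 0.05).

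The same contrast in liver and quadriceps muscle of Dex-treated mice was set beside that in WAT, in a joint fit over 14 libraries, with 3 E47KO and 2 WT libraries in each of these tissues. The difference of the genotype effects between WAT and liver passed an adjusted p of 0.05 for 0 of 18113 genes with edgeR (0% called), with 592 (3.27%) at an unadjusted p under 0.05 and 5 called by DESeq2. Between WAT and muscle it passed for 2 genes (0.011%), with 574 (3.17%) at an unadjusted p under 0.05. Of the same 6 class II genes all 6 were also higher in liver, with a median of 1.71, and 5 of 6 in muscle, with a median of 0.71. In liver the WT libraries of *H2-Aa* lay far apart, at 4.63 and 0.484 CPM on the scale of the joint fit. Its E47KO libraries were at 5.98, 7.15 and 15.4 CPM. For *H2-Ab1* the WT liver libraries were closer, at 4.06 and 2.91 CPM. In muscle the genotypes did not overlap for *H2-Aa* but did for *H2-Ab1*, *H2-Eb1* and *Cd74*. In the test of the difference none of the 6 had a p under 0.05 against liver and 3 had one against muscle, with *H2-Ab1* at a difference of 2.10 (SE 0.70) and *Cd74* at 1.81 (SE 0.71).

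*Rnf144b* and *Mlxipl* were lower in WAT and close to 0 in the other tissues. For *Rnf144b* the log2 fold change was 0.08 in liver and -0.09 in muscle, and the difference of WAT from liver was -0.99 (SE 0.19, adjusted p = 0.837) and from muscle -0.82 (SE 0.19, adjusted p = 0.584). For *Mlxipl* the difference was -1.01 (SE 0.28) from liver and -0.87 (SE 0.28) from muscle. *Hal* was higher in WAT and muscle (log2 fold change 3.24 in muscle) and not in liver (-0.30), with a difference of WAT from liver of 3.84 (SE 0.74, adjusted p = 0.837). *Tdg* was lower in all 3 tissues, with -0.76 in liver and -1.47 in muscle, and by more in WAT than in liver (difference -1.5, SE 0.30, adjusted p = 0.837). All of these differences had an unadjusted p under 0.05 and none passed adjustment in the main edgeR fit. DESeq2 called the difference from liver for *Rnf144b* (adjusted p = 0.00528), *Tdg* (0.0204) and *Hal* (0.0303), and from muscle for *Rnf144b* (0.0160). It did not call *Mlxipl* against either tissue. The edgeR fit without a filter on low counts called *Hal* against liver (adjusted p = 0.00285). *Gm15920* was higher by 6.31 in liver and 5.12 in muscle on the log2 scale. *Gm9855* had 0 and 1 counts in WT liver against 56 to 93 in E47KO liver, and 2 and 1 counts in WT muscle against 125 to 160 in E47KO muscle. The GR target list had a median of -0.42 in liver, with 2 of 24 higher, and of 0.07 in muscle, with 13 of 24 higher.

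**Figure D5:**
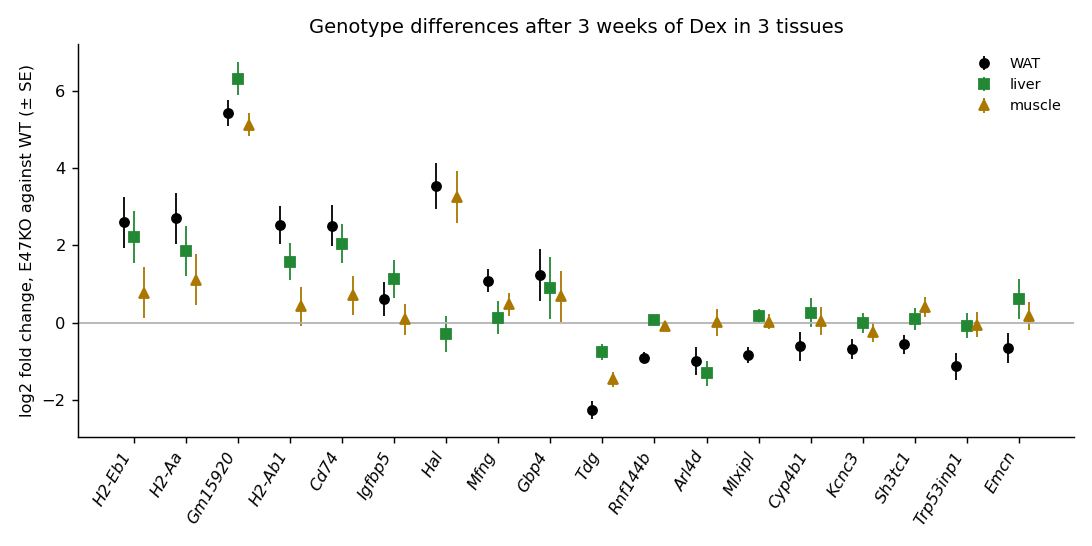
Genotype differences in WAT, liver and muscle for 18 of the 19 leading genes with a mean of at least 1 CPM in each tissue, as log2 fold change of E47KO over WT with its standard error from the joint fit. *Rnf144b* and *Mlxipl* lie near -0.9 in WAT and close to 0 in the other tissues, and *Hal* lies above 0 in WAT and muscle but not in liver.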

How the data were processed

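Poly(A) RNA was sequenced by the authors from unstranded libraries of epididymal WAT. Per the labels, reads were mapped to mm10, and the tools named in the submitters' processing notes are STAR 2.4.2a, HTSeq and DESeq2. Which of the first 2 counted these libraries is not certain. The deposited values are raw counts of reads per gene, 1 file per library, not normalized and not pooled. Entries that name no gene were left out. Symbols and positions were found for 45229 of 46078 identifiers.

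WAT libraries were compared with edgeR 4.0.16 (R 4.3.3) after filterByExpr and TMM scaling, with the quasi-likelihood F test on genotype alone, two-sided, and Benjamini-Hochberg adjustment. SE is the log2 fold change over the root of F. P-values measure the spread between mice, and with 2 per group the precision is low. Counting error matters only for weakly expressed genes. A group was at the floor when each library had at most 3 counts. Differences between tissues came from a joint fit of 14 libraries with a mean per group, treated as independent. By the animal numbers in the deposited names, no WAT mouse gave a liver or muscle library, and 3 mice gave both of the latter. Counts of the 2 replicates of a genotype were set against each other, and with a chi-square per degree of freedom of 49.1 in WT and 86.0 in E47KO neither pair was a duplicate. Scripts were tested on simulated counts.

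The members, the 36 gene lists and the tests were chosen with earlier results of these data known, and 5 lists and 17 genes were added after their values were seen. Named genes are *Tcf3*, *Tdg*, *Gm9855*, the 12 higher and 12 lower genes of smallest p without overlap between groups and with a mean of at least 1 CPM, and, in each list, members with p under 0.05 and the best-known ones. Alternatives were DESeq2 1.42.0, RLE and upper-quartile factors, no filter, a mean of at least 1 CPM, the joint fit, a block on neighbouring animal numbers, and leaving out each library. The authors' own DESeq2 tables, with log2 fold changes and p-values, were not used. A few genes that these rules name are not reported here. Promoters came from RefSeq (GRCm38.p6).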

Additional observations from a re-analysis of the deposited data

Results flagged for a closer look

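The difference of the genotype effects between WAT and muscle passed an adjusted p of 0.05 with edgeR (Benjamini-Hochberg) for 2 genes, and both are given here because the effects differ between the tissues. For *Arxes2*, an adipocyte-expressed gene on the X chromosome, the difference was -3.34 on the log2 scale (SE 0.41, adjusted p = 0.0456). In WAT it was at 257 ± 10.4 CPM in WT and 193 ± 11.0 CPM in E47KO (SD, n = 2), a log2 fold change of -0.41, and in muscle it was higher by 2.94. For *A530020G20Rik* the difference was -2.56 (SE 0.28, adjusted p = 0.0182), with 199 and 177 CPM in WT and 122 and 147 CPM in E47KO in WAT and a log2 fold change of 2.09 in muscle. The adipocyte marker list moved with them, with a median of 0.01 in WAT and 1.3 in muscle, where all 16 markers were higher. The part of fat tissue in the muscle libraries was not tested.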

How the results depend on the processing

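Against 0 genes at an adjusted p under 0.05 in WAT, DESeq2 called 38, the joint fit 3 and the fit without a filter on low counts 6, while leaving out 1 library gave 0 to 333. The latter were 19 without KO2 and 333 without KO3, with 11 genes in common and 4 class II genes in each, and 0 without either WT library. In these fits the lone library of a group is assumed to vary like the others. The 276 higher genes were 454 without a filter and 98 (without WT1) to 991 (without KO3) with 1 library left out, and the 243 lower genes were 150 in the joint fit and 130 (without WT2) to 1068 (without KO3) with 1 library left out. Of 78 genes of the lists and leading genes with an unadjusted p under 0.05, 66 still had one without KO2, 71 without KO3, 44 without WT1, 51 without WT2 and 43 in the joint fit, which lost the most. For the difference of WAT from liver, DESeq2 called 5 genes and the fit without a filter 3, and leaving out a WAT library gave 0 to 0. For the difference from muscle, with 2 genes called, DESeq2 called 47, the fit without a filter 35, the fit at a mean of at least 1 CPM 1, and leaving out a library 0 to 1. The causes were not tested. None of the 78 genes turned its direction in any of the 11 alternatives that tested it, and the fit at a mean of at least 1 CPM tested 71. The 78 were chosen by their p on the same counts, which made a turn of direction unlikely from the outset.

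No paired analysis was possible because the labels give no pairing of WT with E47KO mice, and replicate numbers do not mark one. A block on neighbouring animal numbers, which the labels do not give as a pairing, called 0 genes, with 1127 at an unadjusted p under 0.05 and 414 higher and 361 lower at 1.3-fold. The deviations of these pairs had a correlation of 0.249. With 2 mice a group, differences the size of the median SE of 0.19 on the log2 scale cannot be told from the spread between mice.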

Other observations

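Lists that belong to none of the comparisons above are given here with their counts. Cell cycle genes were higher in 14 of 14, but none had a p under 0.05, and the median of 0.32 was 0.05 without KO2 and -0.01 without WT2. The median was 0.01 over 12 unfolded protein and amino acid stress genes, -0.10 over 12 NRF2-type detoxification genes and 0.09 (0.23 without KO2) over 18 immediate early genes tested, with no p under 0.05 in any of the 3 lists. All 6 mast cell genes tested were higher, with a median of 0.30 (0.57 without KO2 and -0.15 without KO3) and no p under 0.05.

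Transcripts of other tissues varied between libraries without following genotype. *Alb*, the liver's main secreted protein, was at 24.0, 86.8, 68.7 and 65.1 CPM, and the skeletal muscle list was at 51.2, 71.8, 53.5 and 124 CPM in sum. *Gm15564*, singled out after its values were seen, was at 20.6, 27.6, 102 and 52.7 CPM, in the order of *Lars2* across the libraries, which was at 662, 811, 2923 and 1523 CPM. In the joint fit the log2 fold change of *Gm15564*, 1.69, had an SE of 1.42. The source of the reads at either gene was not tested.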
